A study of Mus musculus with 22 samples.

Results

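The genes described here are the integrin chains and the laminin chains of the mouse. Of 24130 genes in the deposited tables, 37 have a symbol of the form Itga, Itgb, Lama, Lamb or Lamc, and 34 of these reached 0.5 TPM (transcript abundance, a level per transcript length and library) in at least 1 library: 16 integrin alpha chains, 7 integrin beta chains and 11 laminin chains. For comparison, 17417 of the 24130 genes reach that level. Just inside the minimum lie Itgae (highest TPM 0.67), Lamc3 (0.86) and Itgal (1.19), and just outside it lie Itgb6 (0.33), Itgad (0.32) and Itgax (0.28).

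The cells were mouse embryonic fibroblasts at passage P2 that carry the OG2 transgene, of mixed strain (129SVJ for 1/2, C57B6 for 3/8 and CBA for 1/8). Every arm was transfected for 2 days before its day count began, and RNA was sequenced from TruSeq libraries. There were 6 arms and 20 libraries: OSK (days 0, 1, 3, 5, 7); OvSvK (days 0, 1, 2, 3, 4), in which Oct4 and Sox2 are fused to the viral activation domain vp16; GFP (days 1, 3, 5, 7); and OSK in medium without bFGF, without Vitamin C, or without CHIR-99021 and LiCl, both GSK3 inhibitors, each on days 3 and 7. OSK names the factors Oct4, Sox2 and Klf4, which turn fibroblasts into pluripotent cells, and GFP, a fluorescent protein, served as the control. A further 2 samples, wild-type embryonic stem cells (mESC) with OG2 and wild-type OG2 fibroblasts (MEF), have values only in the table of the whole series. The labels do not say how many embryos or cultures a sample came from, and they name neither the vector nor the rest of the medium.

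With a single library for each arm and day, no value has a replicate, and each adjusted p below measures how a difference varies over days, or how values depart from a line over days. Library totals ran from 7872278 to 20720724 expected counts. The libraries fell into a pair of sets by 1 pseudogene, Rpsa-ps10, taken as a share of the counts of Rpsa and Rpsa-ps10 together. That share was 3.32% to 7.78% in the 8 OSK and GFP libraries of days 1 to 7. In the other 12 it was 0.125% to 0.478%. OSK against GFP lies within the first set. OvSvK against OSK after day 0 and every omission against OSK cross the sets, which leaves the effect of arm and that of set inseparable: they cannot be told apart. The summed TPM of 10 fibroblast markers was 7405 to 9721 in GFP and 973 to 11177 in OSK with its day 0, and that of 10 pluripotent markers was 0.83 to 2.2 in GFP and 1.7 to 1542 in OSK. In bulk RNA, fewer cells of a type and less RNA per cell cannot be told apart.

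Integrins are cell surface receptors made of 1 alpha and 1 beta chain. They bind the matrix outside the cell and, through talin, kindlin and other adaptors, link it to the actin cytoskeleton and to signalling. The alpha chain largely sets the ligand: Itga3, Itga6 and Itga7 pair with Itgb1, and Itga6 also with Itgb4, to bind laminin; Itga5, Itga8 and Itgav bind fibronectin and other proteins with an RGD motif; Itga1, Itga2, Itga10 and Itga11 bind collagen. Laminins are cross-shaped proteins of 1 alpha, 1 beta and 1 gamma chain that organise basement membranes, the sheets under epithelia. Fibroblasts are known for the fibronectin and collagen receptors, basal epithelial cells for Itga6 with Itgb4 on a laminin with Lama3 and Lamb3, and early embryonic epithelia for Lama1 and Lama5.

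Promoter sequences are shown for 3 genes whose RNA moved far in the OSK course: Itga11 and Itga5, which fell, and Lamb3, which rose. They are RefSeq windows of the GRCm38.p6 build, from 250 bases before to 50 after the gene's start, which matched 21 of the 34 genes. Capitals mark matches to CACCTG or its reverse CAGGTG, the E-box bound by Snail and Zeb factors, and to GGGCGG or its reverse CCGCCC, the GC box bound by Sp and Klf factors. Itga11 (chr9:62677605-62677904, plus strand), Itga5 (chr15:103366742-103367041, minus strand) and Lamb3 (2 annotated starts, chr1:193301744-193302043 and chr1:193301993-193302292, plus strand, overlapping windows) read, 5′ to 3′:
Itga11: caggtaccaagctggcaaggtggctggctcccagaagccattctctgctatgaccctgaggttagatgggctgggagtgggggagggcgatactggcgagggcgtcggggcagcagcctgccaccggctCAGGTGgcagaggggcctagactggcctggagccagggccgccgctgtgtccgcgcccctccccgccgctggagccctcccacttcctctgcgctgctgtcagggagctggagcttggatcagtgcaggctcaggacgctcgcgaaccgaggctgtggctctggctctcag
Itga5: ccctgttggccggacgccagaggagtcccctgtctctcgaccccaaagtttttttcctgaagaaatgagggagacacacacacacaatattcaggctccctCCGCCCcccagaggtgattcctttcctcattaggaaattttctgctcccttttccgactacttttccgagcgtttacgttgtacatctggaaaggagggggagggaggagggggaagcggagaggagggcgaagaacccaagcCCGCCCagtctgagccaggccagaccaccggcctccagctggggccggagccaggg
Lamb3 first start: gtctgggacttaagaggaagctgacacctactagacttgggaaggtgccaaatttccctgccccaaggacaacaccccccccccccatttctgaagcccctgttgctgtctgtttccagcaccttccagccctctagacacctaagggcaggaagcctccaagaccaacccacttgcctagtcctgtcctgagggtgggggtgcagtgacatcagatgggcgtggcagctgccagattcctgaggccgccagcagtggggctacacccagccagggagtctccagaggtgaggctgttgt
Lamb3 second start: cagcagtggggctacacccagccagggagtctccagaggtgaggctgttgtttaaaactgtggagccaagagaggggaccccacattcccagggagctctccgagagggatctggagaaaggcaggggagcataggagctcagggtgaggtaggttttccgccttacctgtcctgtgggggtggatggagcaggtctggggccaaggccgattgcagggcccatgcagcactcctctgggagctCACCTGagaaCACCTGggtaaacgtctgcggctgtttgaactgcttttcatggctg
The E-box letters occurred in 20.2% of 32851 promoter windows of the mouse and in those of 7 of the 21 matched genes: Itga3, Itga9, Itga11, Itgb5, Itgb8, Lama5 and Lamb3. Itga11 has 1 match and the second Lamb3 window has 2, so the letters stand before a gene that fell and one that rose. The GC box occurred in 35.7% of all windows and in those of 11 of the 21 genes, with 2 matches before Itga5. The AP-1 letters TGANTCA, searched like the others on both strands, occurred in 7.8% of all windows and before Itga3 and Itga9. A match is a description of these letters and not a measured site.

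Across OSK against GFP on days 1 to 7, calls among laminin chains were all higher in OSK and most among integrin chains were lower, a contrast that was not itself tested. Of the 10 laminin chains tested, 4 were higher in OSK and 0 lower, and of the 21 integrin chains tested, 1 was higher and 8 lower, by edgeR's quasi-likelihood test with Benjamini-Hochberg adjustment. Among all 12680 genes tested, 30.7% passed, 16.8% higher and 14% lower. Itgal, Itgae and Lamc3 had too few counts to be tested, and a low gene kept by the count filter only because of its high arm had to differ. Lamb3 was kept through OSK alone, and Itga2 and Itga2b through GFP alone, so the direction of these calls was fixed by the filter. Lama3 was kept mostly through OSK and Itga11 mostly through GFP. The median difference was 1.05 on the log2 scale over laminins and -1.31 over integrins, beside 0.05 over all genes. Among the genes that were higher were Lama1, Lama3 and Lamb3, of which the last pair are chains of basal epithelial laminin, and Itgb4, a chain of its receptor. DESeq2 called 24 of the 31 genes tested where edgeR called 13, and 4990 of all genes where edgeR called 3895. Without day 1 edgeR called 6 higher and 17 lower, without day 3 it called 5 and 3, and without day 5 it called 4 and 2. Among all genes these calls were 3186 and 2826, 731 and 450, and 598 and 335, against 2126 and 1769 with all days. The lower calls of the members depended most on single days, and calls among all genes varied with the day left out too. Limma on log2(TPM + 1) called 8 higher and 7 lower, and among all genes 2857 higher and 1353 lower.

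**Figure D1:**
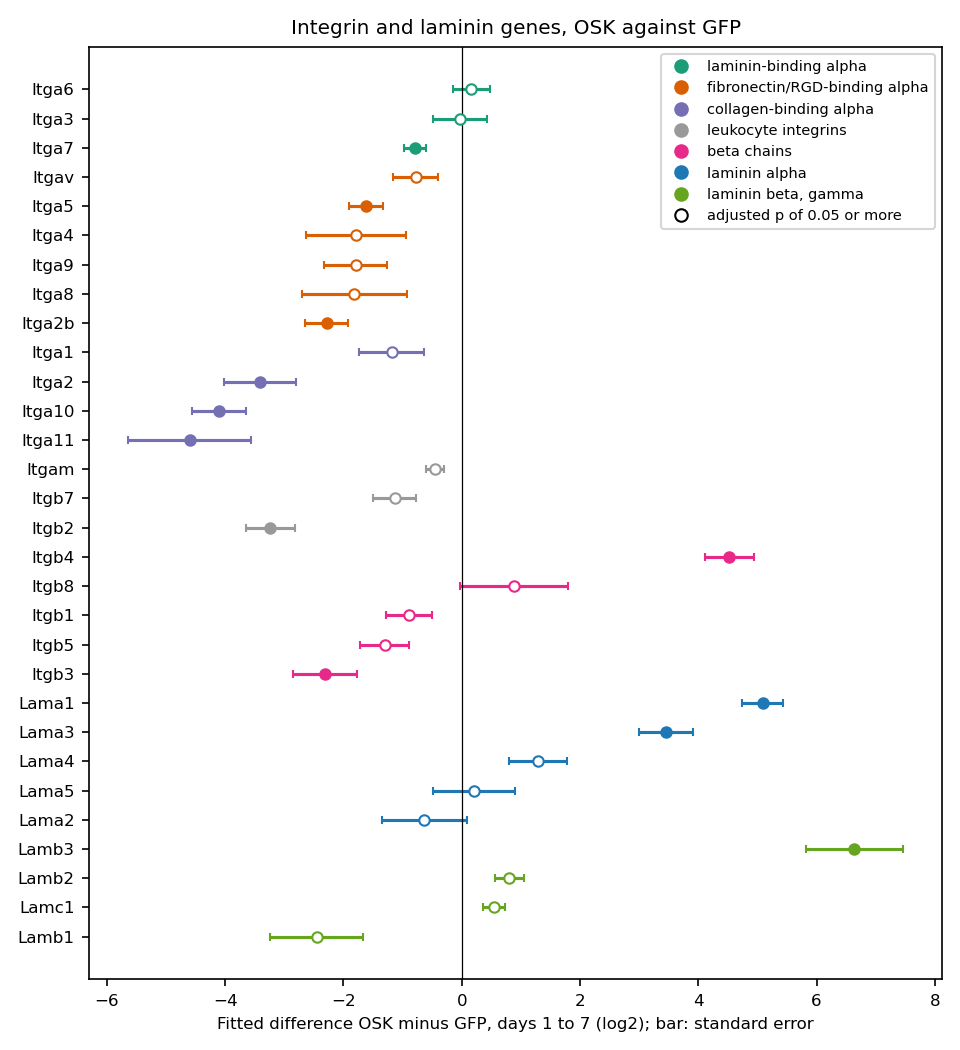
Fitted OSK minus GFP difference (log2, horizontal axis) with its standard error for 30 of the 31 tested integrin and laminin genes, coloured by role, with filled points for adjusted p under 0.05. Lamb3 at 6.64 and Lama1 at 5.09 lie farthest to the right, and the 3 filled collagen-binding chains lie between -4.6 and -3.41.

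Itgb4, which pairs with Itga6 in the hemidesmosomes that anchor basal epithelia, was the 1 integrin chain that was higher in OSK. Its TPM in GFP was 2.88, 4.00, 5.54 and 8.63 on days 1, 3, 5 and 7. In OSK it was 37.72 on day 0 and 81.43, 165.97, 176.03 and 81.47 on days 1, 3, 5 and 7. Every OSK library lies above every GFP library, also on day 0. OSK exceeded GFP by a fitted 4.53 log2 units (SE 0.42, adjusted p = 0.00233), and Itgb4 stayed past the threshold under all 10 alternatives. OvSvK read 27.18, 74.35, 133.35, 134.34 and 112.60 TPM from day 0 to day 4, within the range of OSK except on day 0. As a share of all integrin beta TPM, Itgb4 made up 0.29% to 0.53% in GFP, 21.5% in OSK on day 5 and 17.6% in OvSvK on day 4. The 6 keratinocyte and basal epithelial markers listed had summed TPM of 0.05 to 4.46 in GFP. With day 0 included, the sums were 4.57 to 12.7 in OSK and 8.75 to 103.5 in OvSvK. Krt14 alone gave 100.36 of the highest OvSvK sum, on day 2, where each other listed marker was at 1.05 or less. The part of these markers in the result was not tested.

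Itga6 and Itga3, the alpha chains that bind laminin, did not separate OSK from GFP. Itga6 read 129.03, 96.40, 175.68 and 115.17 TPM in GFP and 246.93, 110.57, 102.53 and 144.51 in OSK on days 1, 3, 5 and 7, and the fitted difference was 0.16 (SE 0.31, adjusted p = 0.728). The groups overlap, and the highest OSK value is that of day 1. In OvSvK, Itga6 was 141.62 on day 0 and 291.63, 265.99, 254.91 and 233.95 on days 1 to 4, with OSK on day 1 between the values of days 4 and 3. Itga3 read 35.67, 14.02, 12.14 and 9.64 in GFP and 12.80, 14.84, 23.75 and 18.67 in OSK, with a difference of -0.03 (SE 0.46, adjusted p = 0.969). Its OvSvK levels were 16.12, 15.66, 34.74, 38.82 and 44.59 from day 0 to day 4. Itga7, best known from muscle, was lower in OSK (8.52, 5.04, 5.42 and 4.11 TPM) than in GFP (13.30, 7.90, 6.82 and 7.51), by a fitted -0.8 (SE 0.19, adjusted p = 0.0274), a call that ended without day 3, 5 or 7, with limma and with no block for day.

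Itga5, the classical fibronectin receptor chain, was lower in OSK than in GFP and fell over days. It started at 222.14 TPM in OvSvK and 224.85 in OSK on day 0. OSK then read 130.86, 60.85, 41.51 and 24.37 TPM on days 1, 3, 5 and 7, and GFP 200.51, 142.07, 125.77 and 125.95. The fitted difference was -1.62 (SE 0.29, adjusted p = 0.0129), and the call ended without day 3, without day 5 or with no block for day. Within OSK the slope was -0.56 log2 units per day (SE 0.07, adjusted p = 0.000571), a call kept under all 20 alternatives. OvSvK fell too, with 105.39, 87.96, 71.84 and 63.20 TPM on days 1 to 4 and a slope of -0.55 (SE 0.13, adjusted p = 0.0188), a call that ended without OvSvK day 0, 3 or 4. Itgav, which binds vitronectin and other RGD ligands, read 55.40, 135.78, 137.22 and 166.36 in GFP and 91.46, 102.54, 69.44 and 70.43 in OSK on days 1 to 7, with a difference of -0.78 (SE 0.38, adjusted p = 0.174). In OvSvK it went from 285.82 on day 0 through 151.71, 134.06 and 91.71 to 73.15 on day 4, a slope of -0.6 (SE 0.1, adjusted p = 0.00382) that ended only without OvSvK day 0.

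Of the other chains of that family, Itga2b passed the test against GFP. Itga2b, the platelet chain, read 2.41, 3.59, 4.29 and 1.98 TPM in GFP and 2.01, 1.2, 1.01 and 0.46 in OSK. Its difference was -2.28 (SE 0.36, adjusted p = 0.00889) on 4 to 24 counts a library, a call that ended without day 3 or day 5. Itga2b passed the count filter through GFP alone, so its call had to come out lower. The 7 megakaryocyte and platelet markers summed on days 1, 3, 5 and 7 to 5.2, 4.53, 2.84 and 2.73 TPM in GFP. In OSK they summed to 5.94, 2.67, 1.91 and 1.23, and their part was not tested. OSK on day 0, outside this test, stood at 16.94, of which Gp1bb gave 11.71. Itga4, Itga8 and Itga9 were not past the threshold, with differences of -1.79, -1.82 and -1.79. Itga4 read 6.24, 11.73, 25.87 and 50.91 in GFP and 8.94, 6.92, 6.45 and 2.13 in OSK, lower on each day but the first.

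All 4 collagen-binding chains had lower fitted values in OSK, and Itga2, Itga10 and Itga11 passed the test. Itga11, which binds fibrillar collagen and marks mesenchymal cells, was at 28.30 TPM in OvSvK and 24.00 in OSK on day 0. On days 1, 3, 5 and 7 it was at 1.72, 0.28, 0.08 and 0.04 in OSK (27, 5, 3 and 1 counts) and at 3.12, 9.36, 3.96 and 6.71 in GFP. Each OSK value lies under every GFP value, and OvSvK reached 0.52 on day 4. The difference was -4.6 (SE 1.04, adjusted p = 0.0249), which ended without day 3, 5 or 7. Itga11 passed the count filter mostly through GFP. Its slope of -1.82 log2 units per day in OSK (SE 0.28, adjusted p = 0.00112) was kept under all 20 alternatives. Itga10, a collagen receptor known from cartilage, was highest in GFP. GFP read 1.97, 10.75, 16.18 and 16.97 TPM and OSK 0.45, 0.62, 0.64 and 1.18, a difference of -4.11 (SE 0.45, adjusted p = 0.00353) kept under all 10 alternatives. Itga2 read 2.76, 0.88, 2.47 and 1.39 in GFP and 0.18, 0.39, 0.13 and 0.10 in OSK (3 to 6 counts). The difference was -3.41 (SE 0.6, adjusted p = 0.0126), a call that ended without day 5. Itga2 passed the count filter through GFP alone, so its call had to come out lower. Itga1 did not pass (-1.19, adjusted p = 0.154). It read 4.30 TPM on day 0 and 10.90 on day 4 in OvSvK, while OSK read 2.49 on day 1 and 0.92 on day 7, values that cross the library sets.

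Summed over roles, laminin-binding chains took a larger share of alpha TPM in OSK than in GFP. Their own sum did not separate the arms, while that of the fibronectin/RGD-binding chains did. Laminin-binding chains summed on days 1, 3, 5 and 7 to 268.2, 130.4, 131.7 and 167.3 TPM in OSK and 178, 118.3, 194.6 and 132.3 in GFP, which overlap. Fibronectin/RGD-binding chains summed to 242.8, 176.2, 121.4 and 99.81 in OSK and 272.2, 306.8, 306.2 and 370.4 in GFP, all lower in OSK. Itgam is left out of these shares because its deposited length of 478 to 512 bases is that of a short transcript, which gives it 154 to 330 TPM from at most 1545 counts; the annotation also has Gm49368 overlapping it. The laminin-binding share was 24.8% to 38.7% in the 4 GFP libraries and 41.9% to 61.9% in OSK on days 1 to 7. Both day 0 libraries were low, at 22.4% in OvSvK and 18.6% in OSK, and OvSvK read 53.5%, 57%, 62.3% and 64.4% on days 1 to 4. By TPM, every OSK library from day 1 on lies above every GFP library. The deposited length of Itga6, the largest laminin-binding chain, ran from 2014 to 3380 bases between libraries. By counts, which do not use length, OSK on day 3 does not lie above GFP on day 1. With Itgam counted, the share on the last day was 33.1% in OSK, 45.4% in OvSvK and 16.7% in GFP, in the same order.

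**Figure D2:**
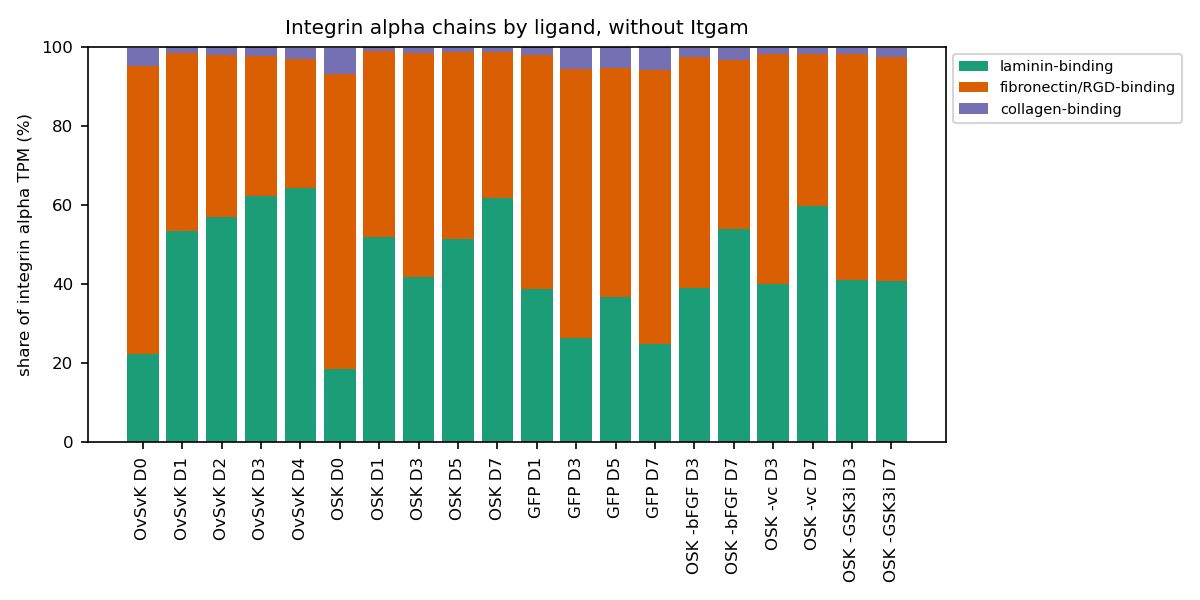
Share of summed integrin alpha TPM (%, vertical axis, Itgam left out) taken by laminin-binding, fibronectin/RGD-binding and collagen-binding chains in each of the 20 libraries. The laminin-binding part is 24.8% to 38.7% in GFP and reaches 61.9% in OSK and 64.4% in OvSvK on their last days.

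Among the other beta chains, Itgb1, the common partner of most alpha chains, was the most abundant by TPM in 19 of 20 libraries, with Itgb5 above it in OSK on day 0 (338.69 against 273.08 TPM). Itgb1 read 550.39, 913.43, 1021.28 and 1106.31 TPM in GFP and 820.80, 584.44, 495.04 and 335.73 in OSK on days 1, 3, 5 and 7, so that OSK was higher on day 1 and lower on the other 3 days (-0.89, SE 0.38, adjusted p = 0.131). OvSvK fell from 1388.32 on day 0 to 386.34 on day 4, at -0.6 log2 units per day (SE 0.09, adjusted p = 0.00307), a call kept under all 20 alternatives. Itgb3, the partner of Itgav and Itga2b, fell in OSK from 22.31 TPM on day 1 through 6.98 and 4.53 to 2.27 on day 7, while GFP stayed at 31.49, 20.74, 32.01 and 29.09. The difference was -2.31 (SE 0.55, adjusted p = 0.0283), a call that ended without day 3, 5 or 7 and with no block for day. The slope in OSK was -0.49 (SE 0.07, adjusted p = 0.000738), kept under all 20 alternatives. Itgb5 did not pass against GFP (-1.31, adjusted p = 0.0617), with 165.81 to 468.19 TPM in GFP and 126.41 to 230.16 in OSK. Itgb8, which activates TGF-beta, stayed under 6 TPM in all arms.

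Among the leukocyte chains, Itgb2 passed the test against GFP. Itgb2, the beta chain of leukocytes, was lower in OSK (2.14, 1.12, 1.38 and 0.42 TPM) than in GFP (6.58, 7.57, 11.11 and 9.71), by -3.24 (SE 0.42, adjusted p = 0.00519), kept under all 10 alternatives. The 11 macrophage and leukocyte markers summed on days 1, 3, 5 and 7 to 54.8, 36.29, 47.99 and 50.08 TPM in GFP and to 53.54, 113.7, 125.9 and 48.48 in OSK, so the arms overlap. Laptm5 took 25.6 to 95.51 of these sums in OSK and 1.38 to 5.67 in GFP. Cd53 (0.3 to 0.64 against 2.96 to 9.2) and Tyrobp (0.27 to 0.97 against 1.05 to 6.53) were lower in OSK in TPM, as Itgb2 was, and the part of such cells was not tested. Itgb7, the partner of Itga4 on lymphocytes, did not differ past the threshold (-1.14, adjusted p = 0.0652). In OvSvK it rose from 0.50 TPM on day 0 through 3.26, 9.18 and 17.30 to 19.83 on day 4, at 1.08 log2 units per day (SE 0.2, adjusted p = 0.00753), a call that ended only without OvSvK day 0. Itgam, Itgal and Itgae stayed without a call, and the last had at most 13 counts in any library.

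Lama1, the alpha chain of the first laminin of the embryo, had the smallest adjusted p of these genes in OSK against GFP. GFP read 1.01, 0.97, 1.00 and 0.65 TPM on days 1 to 7. OSK read 2.35 on day 0, then 20.46, 71.26, 39.08 and 24.55, and OvSvK 11.71, 82.82, 127.77, 139.94 and 105.08. Both factor arms were highest on day 3. The difference from GFP was 5.09 (SE 0.35, adjusted p = 0.00112), kept under all 10 alternatives. Lama3 of the epithelial laminin read 0.07, 0.18, 0.16 and 0.38 TPM in GFP (3 to 20 counts) and 1.1, 3.08, 3.70 and 1.83 in OSK. The difference was 3.46 (SE 0.46, adjusted p = 0.00542), also kept under all 10, and Lama3 passed the count filter mostly through OSK. OvSvK took it further, from 0.76 on day 0 through 2.08, 5.6 and 10.04 to 15.77 on day 4 (slope 0.98, SE 0.18, adjusted p = 0.00702), which ended only without OvSvK day 0.

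Lama4, the laminin alpha chain of vessels and mesenchyme, was the most abundant laminin alpha chain by TPM in each of the 20 libraries. It read 38.63, 120.20, 92.83 and 135.71 in GFP and 287.82, 347.08, 278.34 and 143.45 in OSK, with an adjusted p of 0.0959 at a difference of 1.29 (SE 0.49). By CPM, which does not use length, OSK on day 7 stood at 299.7, under GFP on day 3 (318.6) and day 7 (367.3); the deposited length in that OSK library was 4990 bases against a median of 5999. Lama2, the laminin chain of muscle and nerve, read 28.98, 9.68, 6.31 and 1.94 in OSK on days 1 to 7 and 7.14, 12.56, 11.30 and 10.81 in GFP, and fell over days in OSK (slope -0.6 log2 units per day, SE 0.07, adjusted p = 0.000369) and in OvSvK from 66.77 to 2.34 TPM (slope -1.32, SE 0.12, adjusted p = 0.000506), both kept under all 20 alternatives. Lama5, the alpha chain of most adult and embryonic basement membranes, read 20.74, 14.01, 8.41 and 9.55 TPM in GFP and 4.50, 18.88, 30.77 and 89.97 in OSK. The last Lama5 value rests on a deposited length of 2733 bases in that library, against a median of 11388. By CPM (counts relative to the TMM-scaled library size), Lama5 was 111 in OSK on day 5, 102 in OSK on day 7 and 288 in OvSvK on day 4.

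**Figure D3:**
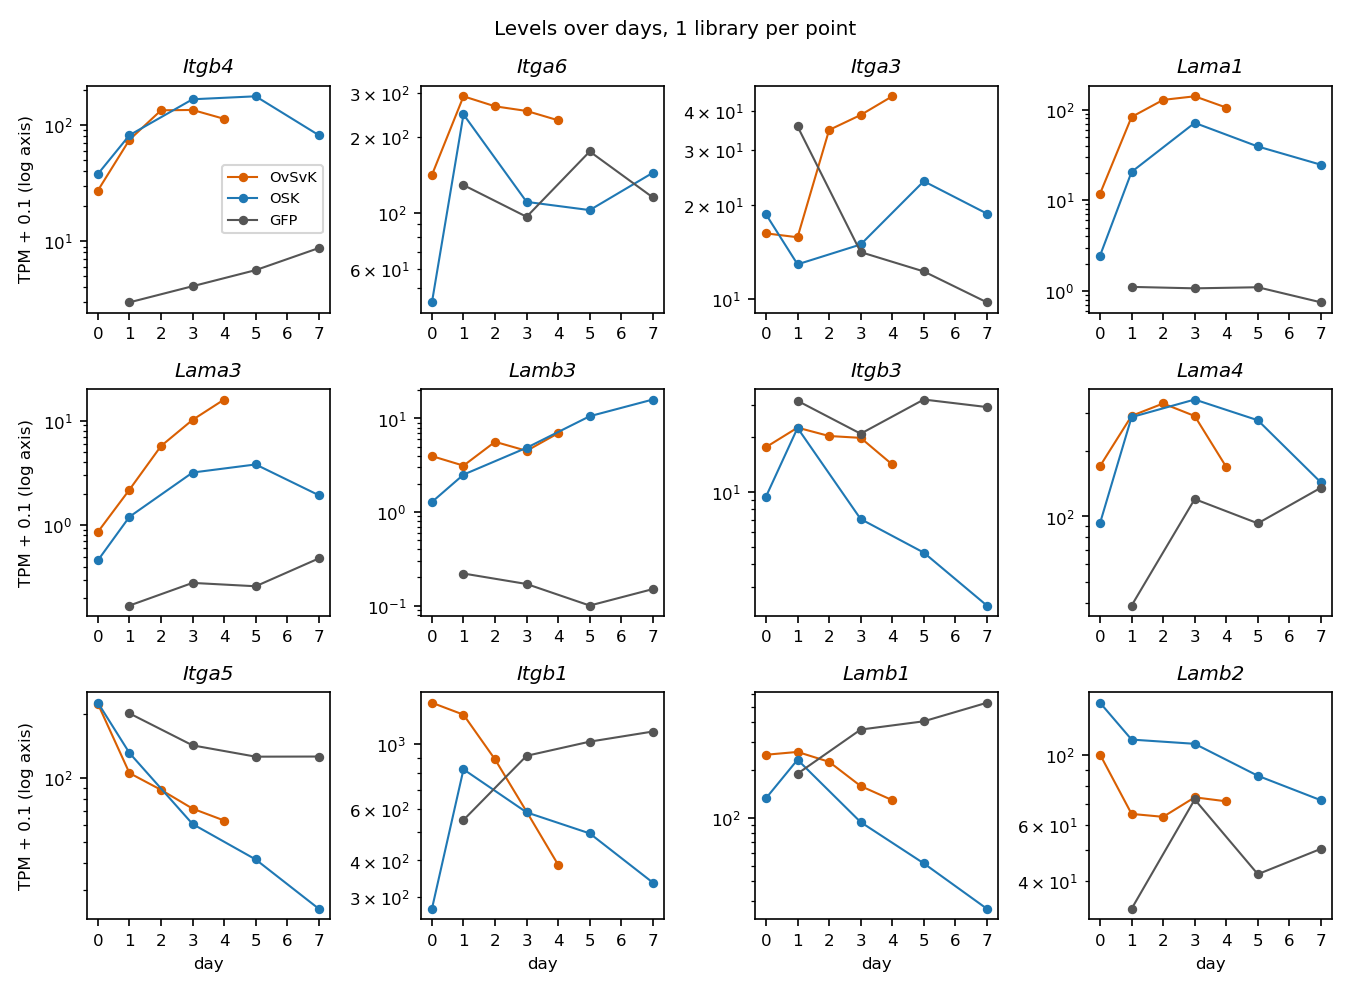
TPM + 0.1 (log axis) over days for 12 integrin and laminin genes in OvSvK, OSK and GFP, 1 library per point. Itgb4, Lama1, Lama3 and Lamb3 lie apart from GFP in both factor arms from day 1, and Itga5 and Lamb1 end lower in the factor arms than in GFP.

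Lamb3 is the beta chain of the epithelial laminin. It had 2, 1, 0 and 1 counts in GFP on days 1, 3, 5 and 7, which allow at most 0.91, 0.66, 0.37 and 0.49 CPM (95% exact Poisson bounds, and 3 counts where none was seen). OSK had 29, 69, 307 and 441 counts, or 2.41, 4.76, 10.47 and 15.84 TPM. In CPM, OSK stood at 3.27, 7.22, 17.05 and 26.65, each above the GFP bound of its day. Lamb3 passed the count filter through OSK alone, so its call against GFP had to come out higher. Its fitted value (6.64) depends on the prior count, ran from 2.89 to 7.7 over the alternatives and is no measure of the fold. Within OSK, Lamb3 was the gene of these that rose over days (0.44 log2 units per day, SE 0.07, adjusted p = 0.0015), kept under all 20 alternatives; OvSvK stayed between 3.03 and 6.86. All OSK values lie above all GFP values.

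Lamb1 and Lamb2, the beta chains of most laminins, changed order between GFP and OSK. In OvSvK, Lamb1 stayed above Lamb2 in every library, at 62.2% to 79.2% of the laminin beta TPM. Lamb1 read 188.98, 357.96, 403.53 and 527.87 TPM in GFP and fell in OSK, from 231.32 through 93.65 and 51.51 to 26.64. Lamb2 was 32.49, 72.28, 41.85 and 50.39 in GFP and 111.99, 108.58, 85.96 and 71.87 in OSK, so that Lamb1 stood above Lamb2 in every GFP library and below it in OSK on days 0, 3, 5 and 7, with day 1 the exception. Lamb1 made up 83.2% to 91.3% of the laminin beta TPM in GFP and 66.9%, 45.2%, 34.8% and 23.3% in OSK on days 1, 3, 5 and 7, while Lamb3 reached 13.9%. The mean differences did not pass, at -2.45 (SE 0.78, adjusted p = 0.0631) for Lamb1 and 0.8 (SE 0.24, adjusted p = 0.055) for Lamb2. For Lamb1 the slope in OSK was -0.5 log2 units per day (SE 0.04, adjusted p = 0.000151), kept under all 20 alternatives. Lamc1, the gamma chain in nearly every laminin, read 100.50 to 118.90 TPM in GFP and 219.59, 211.19, 168.31 and 308.21 in OSK (0.55, adjusted p = 0.0768). The value of day 7 again rests on a short deposited length of 3350 bases against a median of 7519, and by CPM it was 497 on day 5 and 430 on day 7.

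Over days, 14 of 32 tested members moved in OSK, 1 up and 13 down, where 45.5% of all genes passed, 21.5% up and 24% down. In OvSvK 9 moved, 2 up and 7 down, where 10.3% of all genes passed, 4.49% up and 5.81% down. In GFP Itga8 rose (0.51 log2 units per day, SE 0.13, adjusted p = 0.0459), where 4.8% of all genes passed, 2.07% up and 2.73% down, and it was not past the threshold under 13 of 20 alternatives. The OSK calls kept under all 20 alternatives were those of Itga5, Itga9, Itga11, Itgb3, Lama2, Lamb1 and Lamb3. Itga5, Itga11, Itgb1, Lama2 and Lamb1 fell in both factor arms, though Itgb1 in OSK (-0.14, adjusted p = 0.0389) lost its call under 11 of 20. The slopes themselves differed between OSK and GFP for 5 members, all lower in OSK, where 6.22% of all genes passed, 2.85% higher and 3.38% lower: Lamb1 by -0.69, Lama2 by -0.65, Itga11 by -1.88, Itgb3 by -0.47 and Itga8 by -0.71. Without GFP day 1, 0 members passed, and 0 of all genes did. Without GFP day 7 or GFP day 5, 1 and 3 members passed, and 12 and 400 of all genes. Without OSK day 0, 9 members and 1025 of all genes passed. Without both OSK day 0 and GFP day 1, 1 member and 18 of all genes passed, against 862 of all genes with all libraries. OvSvK without its day 0 library left 2 calls of its 9, and 189 of 1426 calls among all genes. The OSK slope crosses the library sets between day 0 and the later days. TMM-scaled CPM stand 1.88 times higher relative to TPM in OSK day 0 than in the median library, so levels in that library depend on the scaling.

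OvSvK and OSK can be compared at 3 shared days and at their last days, with 1 library each and therefore no test. Members with at least 5 CPM in either library were 26 in each pair. Past 2-fold, 9 were higher and 5 lower in OvSvK on day 0, where 24.6% and 21.7% of all genes were (46.2% in all); 4 and 1 on day 1 (15.9% and 7.6%, 23.5% in all); 10 and 1 on day 3 (11.9% and 9.87%, 21.8% in all). On the last days, OvSvK day 4 against OSK day 7, 14 were higher and 1 lower (10.5% and 9.81%, 20.3% in all). Lamb3 was the lower one, at -1.42 log2. Lama1 was higher by 1.7 log2 on day 0, 1.94 on day 1 and 1.85 on the last days, and stood at 0.91 on day 3, under 2-fold. Itga1 was higher by 1.57, 1.3, 1.82 and 3.24. Itga9, a receptor for tenascin, stood at -0.05 and 0.19 on days 0 and 1, 2.9 on day 3 and 1.97 on the last days. Itgb7 stood at -0.44 on day 1, 1.38 on day 3 and 2.09 on the last days, and was under the CPM minimum on day 0. Without TMM scaling, which moved the median of all genes in the day 0 pair from -0.11 to 0.24, that pair had 10 members higher and 0 lower.

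Leaving factors out of the OSK medium moved few of these genes, and each comparison with OSK crosses the library sets. With no block for day, 0 members passed in any omission comparison, and at most 11 of all genes did. Without bFGF, a growth factor of fibroblasts, 5 of 31 members passed, 3 higher and 2 lower, where 12.5% of all genes did, 4.71% higher and 7.77% lower. Lamb2 rose from 108.58 and 71.87 TPM on days 3 and 7 in OSK to 202.72 and 165.88 (1.1, SE 0.26, adjusted p = 0.0236). Itga11 (3.26, adjusted p = 0.0229) and Lama2 (1.82, adjusted p = 0.0405) were higher too. Itga11 had 5 and 1 counts in OSK on days 3 and 7, and 56 and 34 without bFGF. It passed the count filter only through the omissions of bFGF and of GSK3 inhibitors, so its call had to come out higher. With the GC trend removed, the higher calls fell to 0 and the lower calls numbered 3, and 254 and 250 of all genes passed. Itgb7 went from 6.05 and 3.81 to 0.88 and 0.67 (-2.59, SE 0.38, adjusted p = 0.00586), and Itgb3 from 6.98 and 2.27 to 2.31 and 1.32 (-1.15, SE 0.3, adjusted p = 0.0316). Leaving out either library that lacks bFGF left 0 members, and leaving out OSK day 3 gave 8. Among all genes, leaving out day 3 or day 7 without bFGF left 9 and 27 calls, and leaving out OSK day 3 gave 3782, against 1771. Itga11 was at 1.55 and 0.86 TPM in the omission on days 3 and 7, at 0.28 and 0.04 in OSK, and at 24.00 in OSK on day 0.

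Without the GSK3 inhibitors 6 members were higher and 0 lower, where 23.3% of all genes passed, 9.97% higher and 13.3% lower. Itgb4 rose from 165.97 and 81.47 TPM to 257.89 and 245.81 (1.11, SE 0.27, adjusted p = 0.0178) and made up 28.5% and 28.6% of beta TPM. Lama3 rose from 3.08 and 1.83 to 7.04 and 5.89 (1.41, SE 0.36, adjusted p = 0.0211), and Lamb1 from 93.65 and 26.64 to 144.74 and 91.93 (1.18, SE 0.26, adjusted p = 0.0109). Lamb2, Lama2 and Itgb7 passed at 0.86, 1.53 and 1.08 (adjusted p = 0.0381, 0.0498 and 0.039). Of 14 alternatives, Lama2 lost its call under 11, Itgb7 under 10, Lamb2 and Lama3 under 6, Itgb4 under 3 and Lamb1 under 2. Leaving out the day 7 library that lacks the inhibitors left 0 calls, leaving out either bFGF omission left 3, and leaving out OSK day 3 gave 10. Among all genes these gave 5, then 2377 and 2422 without bFGF day 3 or day 7, and 4536, against 3309. The 11 macrophage and leukocyte markers summed to 165.8 and 199.1 TPM on days 3 and 7 in this omission and to 113.7 and 48.48 in OSK. Laptm5 alone gave 117.4 and 168.9 of the former; without it the sums were 48.38 and 30.17 in the omission and 51.49 and 12.7 in OSK. Ptprc, which marks all leukocytes, was at 0.09 TPM on both days of the omission and at 0.54 and 0.34 in OSK. Cd68 was at 44.37 and 26.31 in the omission and at 49.72 and 11.17 in OSK. The part of such cells was not tested.

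Without vitamin C, 0 of 31 members passed in edgeR, where 0.296% of all genes did (0.0423% higher, 0.254% lower). In DESeq2 0 members passed, where 316 of all genes did, 145 higher and 171 lower. In edgeR 2 members had an unadjusted p under 0.05, as did 12.6% of all genes. Leaving out OSK day 3 gave 3 calls, and leaving out OSK day 7 or the day 3 library without vitamin C gave 1. Among all genes these left-out libraries gave 1381, 130 and 44 calls, against 42 with all libraries. Within 1 set, the omissions can be set against each other, a comparison chosen after the data were seen. Itgb7 was lower without bFGF than without vitamin C (-1.64, adjusted p = 0.0336), a call lost under 9 of 14 alternatives. It was higher without GSK3 inhibitors than without vitamin C (2.04, adjusted p = 0.00441) or without bFGF (3.67, SE 0.38, adjusted p = 0.00176), each lost under 3 of 14. Of 31 members, 2, 4 and 4 passed in these comparisons. Itga11 was among them in both comparisons with vitamin C, where the count filter likewise fixed its direction. Among all genes 7.03% passed in the first (2.02% higher, 5.01% lower), 14% in the second (4.66% and 9.29%) and 3.08% in the third (1.67% and 1.41%). Itga6 on days 3 and 7 was at 101.46 and 153.48 TPM without vitamin C and at 68.05 and 54.69 without the inhibitors, and passed at -0.85 (SE 0.24, adjusted p = 0.0429), a call lost under 9 of 14 alternatives. Leaving out a bFGF omission left 0 calls in both comparisons with that arm, and at most 6 among all genes. Leaving out the day 7 library without GSK3 inhibitors left 0 against vitamin C and 1 against bFGF, and 220 and 14 among all genes.

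**Figure D4:**
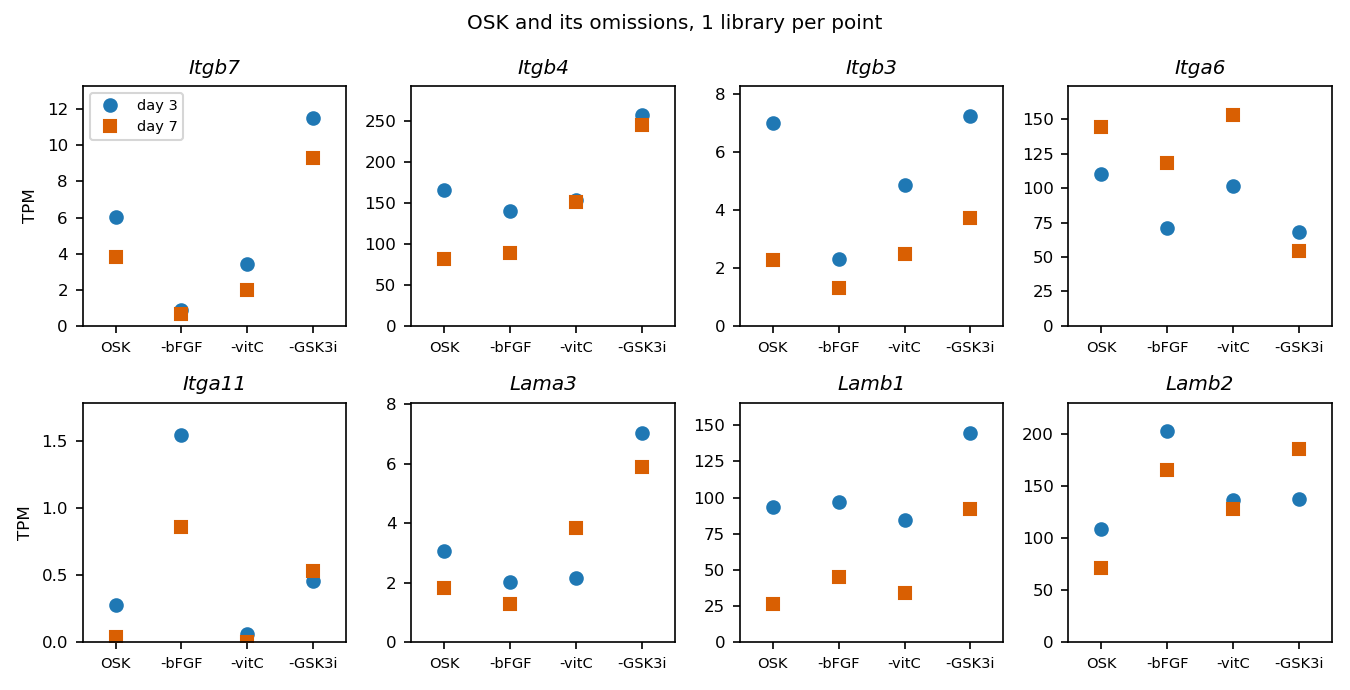
TPM (linear axis from 0) of 8 members in OSK and in OSK without bFGF, vitamin C or GSK3 inhibitors, on days 3 (circles) and 7 (squares), 1 library per point. Itgb7 is lowest without bFGF (0.88 and 0.67) and highest without the inhibitors (11.53 and 9.28).

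Of 20 tested members of the integrin adhesion complex, which couples integrins to actin, OSK had 3 higher and 8 lower against GFP, where 30.7% of all genes passed. Actn1 (-1.41, adjusted p = 0.0041), an actin crosslinker, and Pxn (-0.88, adjusted p = 0.0078), the scaffold paxillin, were lower, and Fermt2, kindlin-2, was higher (1.23, adjusted p = 0.00524). Of 11 tested ligands of the interstitial matrix, 7 were lower, among them Fn1 (-1.84, adjusted p = 0.04), fibronectin itself, singled out after its value was seen, Spp1 (-5.24, adjusted p = 0.0111) and Mfge8 (-1.84, adjusted p = 0.00893), and Ctgf was higher (1.88, adjusted p = 0.00777). Of 15 basement membrane partners, 3 were lower and 1, Ntn4, higher (2.48, adjusted p = 0.00188). In the slope of OSK, 15 of the 20 adhesion genes fell and 1 rose (45.5% of all genes passed), and in that of OvSvK 8 fell and 0 rose (10.3%). Without GSK3 inhibitors 9 of the 20 were higher than in OSK and 1 lower (23.3%), and without bFGF 5 of the 15 basement membrane partners were higher and 0 lower (12.5%).

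The mESC and MEF samples can be compared in the series table, whose values are quantile-normalized scores. Of the 31 members in it, 8 were at least 2-fold higher in mESC than in MEF and 16 at least 2-fold lower, with a score of 100 or more in 1 of them, where 24.1% of its 12897 genes were higher and 22.5% lower (46.6% in all). Itga11 scored 3736 in MEF and 18 in mESC, Lama4 3542 and 101, and Lamb1 6780 and 800. Itgb4 scored 45 in MEF and 266 in mESC, Lama1 178 and 996, Lama3 34 and 292 and Lama5 2144 and 6018. Lamb3 was 2 and 3 in these cells, while OSK on day 7 scored 356. Both columns are single samples and were quantified with another RSEM version and build than the other libraries.

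**Figure D5:**
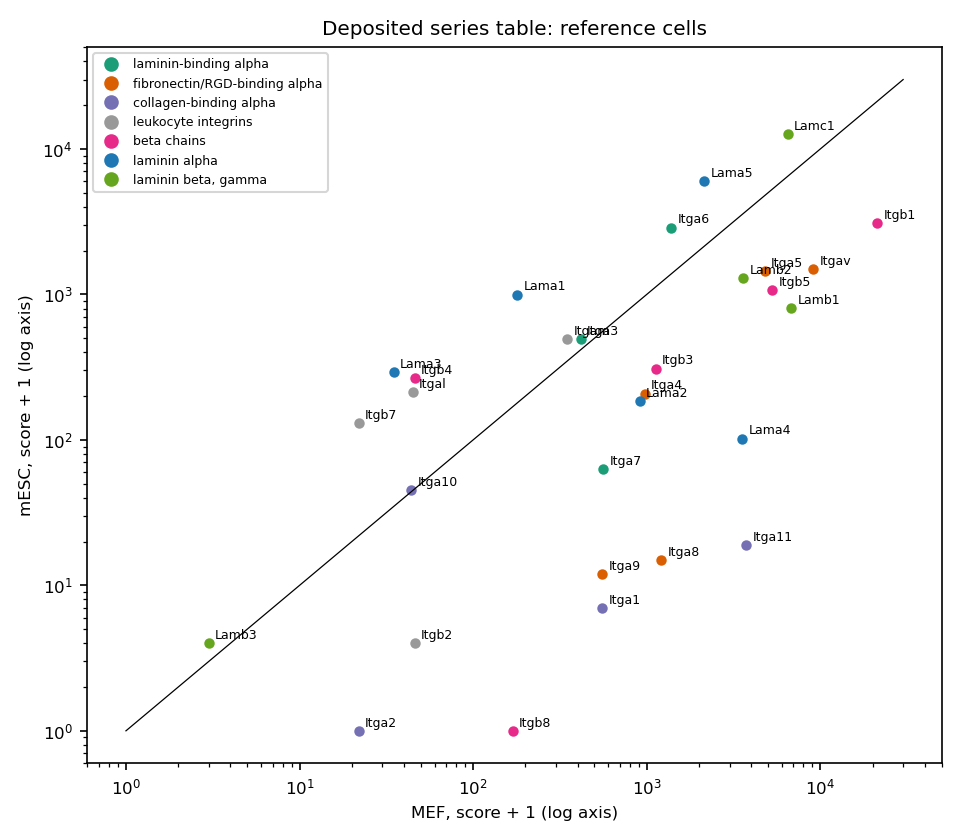
Scores + 1 of 30 integrin and laminin genes in MEF (horizontal) and mESC (vertical), both log axes, 1 sample each, coloured by role, with the line of equal scores. Lama1, Lama3, Itgb4 and Lama5 lie above the line, and Itga11, Lama4 and Lamb1 lie below it.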

How the data were processed

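Per the submitters' processing notes, RSEM 1.2.4 with mm10 quantified the 20 transfected libraries, and RSEM 1.1.21 with mm9 the mESC and MEF samples. Each deposited table gives expected counts, in which ambiguous reads are shared among genes, beside TPM and FPKM, of which the deposited FPKM were left unused. The series table holds whole numbers with 1 median (374) in all columns and was taken as the authors' quantile-normalized score. Aligner and strand setting: not given in the sources used here.

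Expected counts were rounded and tested in edgeR 4.0.16 (quasi-likelihood, TMM, filterByExpr, with limma 3.58.1 in R 4.3.3) with Benjamini-Hochberg adjustment over all genes and a threshold of 0.05. OSK against GFP and omissions against OSK had the day as a block, and slopes used 14 libraries. Because same-day libraries share a day by label, the block pairs them by design. DESeq2 1.42.0, limma on log2(TPM + 1), other scaling, no filter, a GC trend and left-out libraries were the alternatives. On simulated counts, edgeR recovered 100% of genes changed by 2 on the log2 scale over the course in OSK against GFP. It recovered 76.8% in the OSK slope and 92.7% in the bFGF omission, with 9, 6 and 11 false calls. The simulation had no day effect. Its spread between libraries was smaller than that fitted for OSK against GFP and for slopes (coefficients of variation 0.322 and 0.355). It was larger than that of the omissions (0.204). Recovery in OSK against GFP and in slopes may therefore be overstated. Genes named are all members of the family rule and, of each pathway list, at most 6 by p. Intervals cover counting error only. The members and lists were chosen with earlier results of these data known. One member is counted in the totals and is not reported here by name.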

Additional observations from a re-analysis of the deposited data

Results flagged for a closer look

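The slope over days differed between OSK and GFP, by edgeR's quasi-likelihood test of the difference with Benjamini-Hochberg adjustment, for 5 members. Lamb1 had a difference of -0.69 log2 units per day (adjusted p = 0.00175), Lama2 -0.65 (adjusted p = 0.00889), Itga11 -1.88 (adjusted p = 0.0196), Itgb3 -0.47 (adjusted p = 0.0235) and Itga8 -0.71 (adjusted p = 0.0305). Without GFP day 1, 0 of these passed, and 0 of all genes did. For Lamb1 this was the sole alternative of 20 that ended the call.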

How the results depend on the processing

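Of 1004 values of called members under an alternative, 773 kept their call, 230 lost it and 1 reversed: Lamc1 over days in OSK, 0.105 per day by limma on log2(TPM + 1) against -0.14 in edgeR; the cause was not tested. Members called numbered 13 in OSK against GFP and 24 with DESeq2, where 3895 and 4990 of all genes were called. The GFP slope had 1, and 0 with no filter, 7 with DESeq2, 4 with a GC trend removed and 0 without OSK day 0 and GFP day 1. All genes called were 665, then 461, 2224, 1118 and 2. The slope difference had 5, then 11 with DESeq2, 10 with the GC trend removed and 1 without OSK day 0 and GFP day 1. All genes called there were 862, then 1796, 1347 and 18. Without bFGF against OSK there were 5, and 2 with limma, 3 with the GC trend, all 3 lower where the main test had 3 higher and 2 lower. All genes called there were 1771, then 1022 and 504. Without GSK3 inhibitors against OSK there were 6, and 1 with the GC trend, where 3309 and 1202 of all genes passed. bFGF against vitamin C omission had 2, and 0 with limma or the GC trend (all genes 997, 587 and 144). GSK3 against vitamin C omission had 4, then 7 with no filter, 8 with DESeq2 and 2 with the GC trend. All genes called there were 1980, then 2132, 2330 and 718. GSK3 against bFGF omission had 4, and 1 with limma (all genes 437 and 212). With no replicate block for day, 0 members were called in these 5 omission comparisons, and 12 in OSK against GFP. Among all genes there were at most 11 calls in the former and 2934 in the latter.

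Leaving out 1 library or day at a time gave 6 to 23 members in OSK against GFP, 11 to 18 in the OSK slope, 2 to 9 in OvSvK, 0 to 8 in GFP and 0 to 9 in the slope difference. Among all genes these ranges were 933 to 6012, 2908 to 6845, 189 to 2651, 0 to 2646 and 0 to 1074. Omissions gave 0 to 8 for bFGF, 0 to 3 for vitamin C and 0 to 10 for GSK3 inhibitors against OSK, and among each other 0 to 8, 0 to 10 and 0 to 7. In the same order, all genes called ran from 9 to 3782, 3 to 1381, 5 to 4536, 0 to 2355, 220 to 3580 and 6 to 1534. The laminin-binding share of alpha TPM on the last day was 33.1% in OSK, and 39.5% by counts, 38.5% without Itgav and 61.9% without Itgam; in OvSvK it was 45.4%, 50.5%, 51.1% and 64.4%, and in GFP 16.7%, 12.3%, 21.1% and 24.8%. Itga2b and Lamb3 had at most 24 and 2 counts in any GFP library, and Itga2 at most 6 in OSK after day 0, so depth limits their values.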
